A study of Arabidopsis thaliana with 6 samples.

Results

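Alpha-expansins and xyloglucan endotransglucosylase/hydrolases are secreted proteins that act on growing plant cell walls. A total of 58 of their genes were read against the chromatin maps of ENAP1 and EIN2 in Arabidopsis seedlings. Members were all protein-coding genes with a symbol or synonym made of EXPA or XTH and a number, which gave 25 alpha-expansin genes and 33 XTH genes out of 27444 protein-coding genes on chromosomes 1 to 5. EXPA19 carries such a symbol but is listed as a pseudogene and was left out. The names EXPA3 (symbol EXP3), EXPA26 (EXP26), XTH22 (TCH4), XTH23 (XTR6) and XTH27 (EXGT-A3) come from synonyms.

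Alpha-expansins loosen the bonds between wall polymers under acid conditions without cutting them. XTH enzymes cut xyloglucan, the polymer that coats cellulose, and join the cut end to another chain or, in some members, to water. In dark-grown seedlings ethylene shortens and thickens the hypocotyl and root and tightens the apical hook, and each of these involves a change in wall growth. EIN2 carries the ethylene signal into the nucleus, where ENAP1 associates with it and with histones.

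The data came from whole 3-day-old Col-0 seedlings, grown in the dark at 24 °C and then kept for 4 hours either in hydrocarbon-free air or in the same air with 10 ppm ethylene. ENAP1 ChIP used an antibody against green fluorescent protein, and ENAP1-EIN2 reChIP precipitated that material again with an EIN2 antibody. The labels name every line as Col-0, and how ENAP1 came to carry the tag is not given in the sources used here. With 1 library for each assay and treatment, the values below could not be checked against replicates, and p-values over genes were not calculated; 2 further samples were inputs. After duplicates were removed, ENAP1 ChIP had 8400099 tags in air and 8811720 in ethylene, and the reChIP had 644263 in air and 304818 in ethylene. A single control library served for both air lists, while the control of the ethylene reChIP was the air reChIP. The ethylene reChIP list therefore shows DNA that was more abundant there than in the air reChIP, not occupancy over input.

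A gene was called a target when the summit of a peak, its highest point, lay inside the gene or within 1000 bp of it. By that rule the wall-growth genes were targets less often than protein-coding genes at large in each of the 4 lists. In the air ENAP1 ChIP list 12 of 58 were targets, which is 20.7% (exact binomial 95% interval 11.2 to 33.4), against 38.6% of all protein-coding genes. In the ethylene ENAP1 ChIP list 13 of 58 were targets, 22.4% (12.5 to 35.3), against 36.4% of all genes. In the air reChIP list the count was also 13, 22.4% (12.5 to 35.3), against 30.5%. In the ethylene reChIP list it was 10, 17.2% (8.59 to 29.4), against 34.0%. The intervals cover counting error only. They treat genes as independent, although 17 of the 58 lie in rows of neighbouring members and some share a peak. They leave out the share of all genes in both ENAP1 ChIP lists and in the ethylene reChIP list, and include it in the air reChIP list. This is a description and not a test.

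Genes of similar length, taken between the length quartiles of the members, were also targets more often than all 58 wall-growth genes. The members themselves ran from 1114 to 2711 bp, so these sets cover unlike ranges of length. Members had a median length of 1651.5 bp and all protein-coding genes one of 2078 bp. Among the 4706 protein-coding genes with a length between the lower and upper quartiles of the members (1441.75 to 1950.25 bp), 36.8% were targets in the air ENAP1 ChIP list, 34.2% in the ethylene ENAP1 ChIP list, 26.8% in the air reChIP list and 32.2% in the ethylene reChIP list. The interval of the members includes these shares in the ethylene ENAP1 ChIP and air reChIP lists and leaves them out in the other two. The families had like shares in ENAP1 ChIP: 20.0% of alpha-expansin genes and 21.2% of XTH genes were air ENAP1 ChIP targets. In ethylene these shares were 20.0% and 24.2%. In the air reChIP they were 24.0% and 21.2%, and in the ethylene reChIP 12.0% and 21.2%, with intervals that overlap widely.

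**Figure D1:**
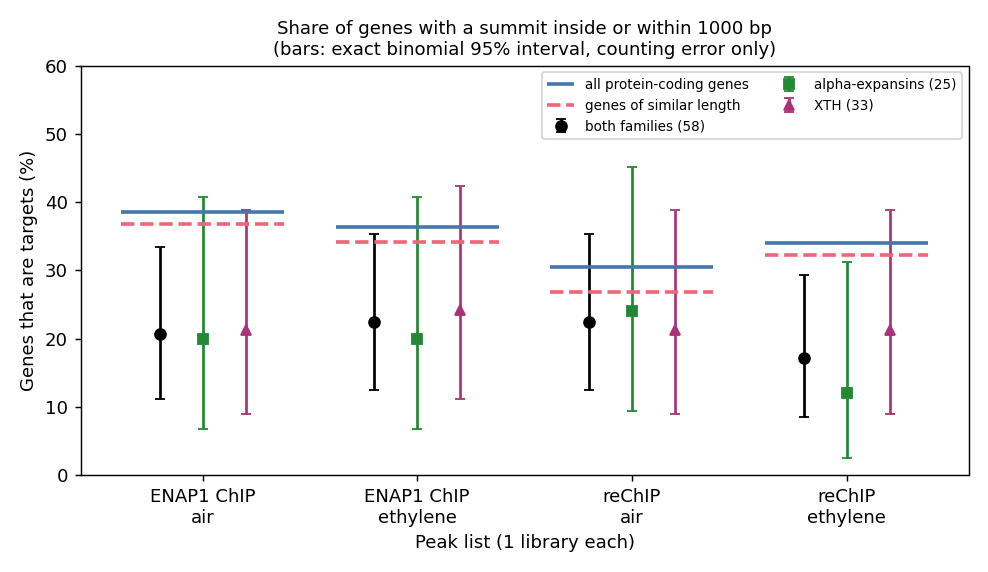
The share of genes called targets in each peak list, in percent, for both families together (circles, 58 genes), alpha-expansins (squares, 25) and XTH genes (triangles, 33), with exact binomial 95% intervals; solid lines mark all protein-coding genes and dashed lines genes of similar length. The circles lie between 17.2 and 22.4%, below the solid line of every list, which lies between 30.5 and 38.6%.

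In all, 32 of the 58 genes (55.2%) were a target in at least 1 list, against 69.6% of all protein-coding genes and 67.1% of those of similar length. ENAP1 ChIP reached 14 of the 58 in at least 1 treatment, which is 24.1% against 43.5% of all protein-coding genes. The reChIP lists reached 23 of the 58, which is 39.7% against 54.5% of all protein-coding genes. In both kinds of list were 5 genes, EXPA2, EXPA3, XTH26, XTH27 and XTH28, or 8.62% against 28.4% of all protein-coding genes. EXPA2, EXPA3 and XTH28 were targets in 3 lists, beside 22.8% of all protein-coding genes in 3 or more. The count for all 4 lists was 0 of 58, beside 5.06% of all protein-coding genes.

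Among the alpha-expansins, ENAP1 ChIP peaks lay at EXPA1, EXPA2, EXPA3, EXPA6 and EXPA9, and each of these 5 genes was a target in air and in ethylene. Fold enrichment is the authors' ratio of the tags at the summit to the local control level, and pileup is the number of tags at the summit, scaled to the smaller library of each pair. EXPA2, an expansin known for its part in seed germination, had the highest fold of the family in ethylene. Its peak was 2.89-fold in air (5:1570034-1570587; pileup 97.2) and 4.16-fold in ethylene (5:1570054-1570624; pileup 65.5). The summit lay 255 bp outside EXPA2 in air and 280 bp in ethylene. In both treatments it lay inside another gene, AT5G05300, and the peak counted for 3 protein-coding genes.

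EXPA6 had the highest fold of the alpha-expansins in air, with its summit inside the gene. The peak was 3.34-fold in air (2:12431778-12432490; pileup 75.9) and 2.76-fold in ethylene (2:12431867-12432244; pileup 45.9). EXPA3 had a wide but low peak inside the gene. It was 2.01-fold in air (2:15787936-15788424; pileup 55.4) and 1.56-fold in ethylene (2:15787945-15788479; pileup 44.2), and the ethylene peak had a q of 0.104, above 0.05. The control level under the EXPA3 peaks was 1.93 and 3.01 times the median control level of the list.

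EXPA1, an expansin gene of guard cells and the root pericycle, had its summits 852 bp (air) and 876 bp (ethylene) outside the gene, with 2.60- and 2.72-fold enrichment. EXPA9 had summits 489 and 520 bp outside, with 1.94-fold enrichment in air and 2.64-fold in ethylene. For both genes the peak counted for no other protein-coding gene. Of the 5 expansin genes, EXPA2 and EXPA6 lay above the median fold of the air list (2.69), and EXPA2 above that of the ethylene list (2.86).

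**Figure D2:**
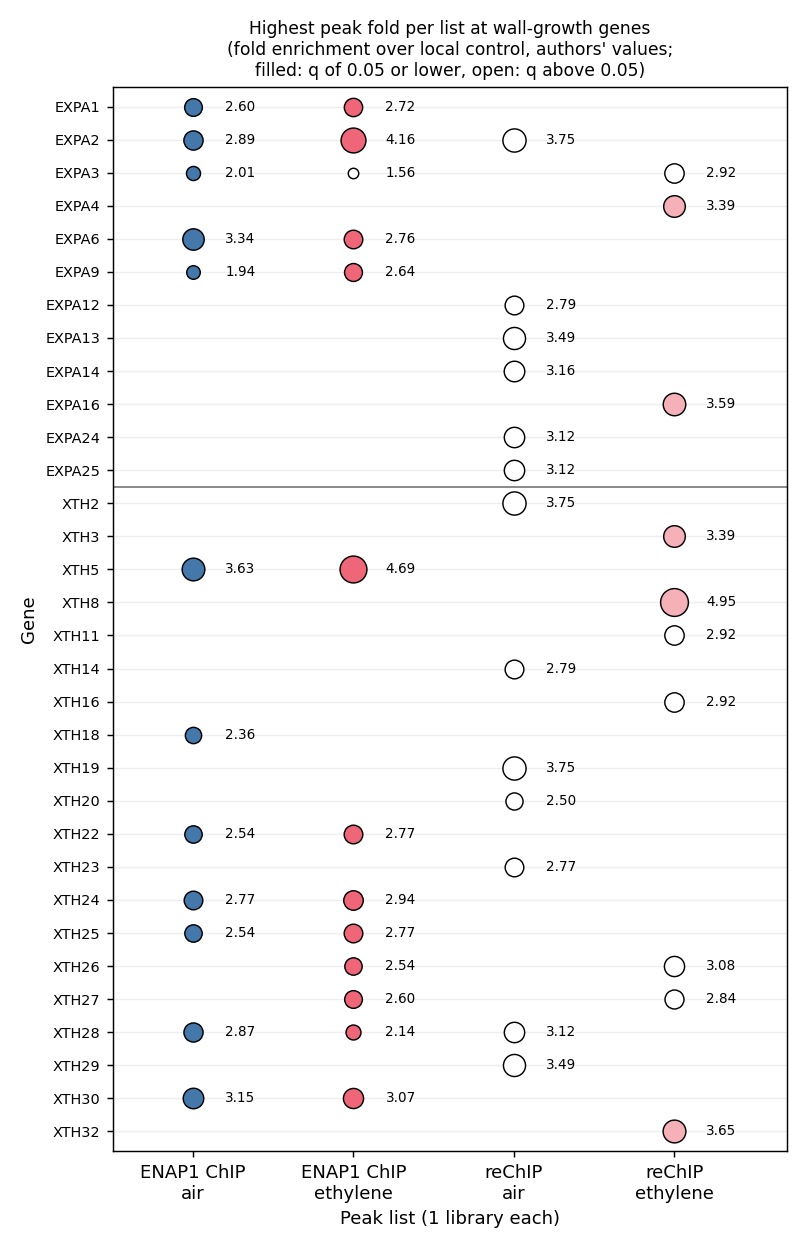
Highest fold enrichment at each of the 32 wall-growth genes that were a target in at least 1 of the 4 peak lists; circle area grows with fold, and open circles mark peaks with q above 0.05. The ENAP1 ChIP columns pair up row by row for 11 genes, the air reChIP column has open circles only, and no gene has a circle in both reChIP columns.

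Among the XTH genes, ENAP1 ChIP peaks lay at XTH5, XTH22, XTH24, XTH25, XTH28 and XTH30 in both treatments, at XTH18 in air alone and at XTH26 and XTH27 in ethylene alone. XTH5 had the highest fold of all wall-growth genes in both ENAP1 ChIP lists. A peak just inside one end of the gene was 3.63-fold in air (5:4476887-4477181; pileup 57.1) and 4.69-fold in ethylene (5:4476897-4477182; pileup 48.0). The latter was higher than 85.4% of the peaks of its list. A further peak at the other side of XTH5 was 3.50-fold in air and 2.93-fold in ethylene. Its summit lay 623 and 616 bp outside XTH5 and inside the gene ELC-Like (AT5G13860).

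XTH30 held ENAP1 ChIP peaks at both ends, all with summits inside the gene. The higher one was 3.15-fold in air (1:11577467-11577861; pileup 99.7) and 3.07-fold in ethylene (1:11577165-11577831; pileup 72.6). At the other end there were 2.52- and 2.28-fold peaks in air and a single 2.91-fold peak in ethylene. XTH28, which is needed for stamen filament growth, also held its ENAP1 ChIP summits inside the gene. The higher peak was 2.87-fold in air (1:5067044-5067382; pileup 93.8) and 2.14-fold in ethylene (1:5067149-5067363; pileup 63.3), and the lower one was 1.76- and 1.91-fold. Under the higher peak the control stood at 2.29 (air) and 3.12 (ethylene) times the median control level.

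XTH24, also called MERI5B, had its main summit 404 bp (air) and 422 bp (ethylene) outside the gene and inside the neighbouring gene AT4G30260. That peak was 2.77-fold in air (4:14818682-14818903; pileup 65.6) and 2.94-fold in ethylene (4:14818679-14818937; pileup 40.4). A 2.00-fold peak inside XTH24 was listed in air alone. XTH22, better known as the touch-induced gene TCH4, and its neighbour XTH25 were counted from a single peak just inside XTH22. It was 2.54-fold in air (5:23306986-23307170; pileup 26.4) and 2.77-fold in ethylene (5:23306978-23307133; pileup 19.1). Its summit lay 635 bp (air) and 623 bp (ethylene) outside XTH25.

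ENAP1 ChIP peaks at these genes lay at the same places in air and in ethylene. Of the 12 air and 13 ethylene targets, 11 were shared, which is 91.7% (61.5 to 99.8) of the air and 84.6% (54.6 to 98.1) of the ethylene targets. Of all protein-coding targets 81.6% and 86.6% were shared, and 31.5% of all protein-coding genes were in both lists. At each of the 11 genes an air and an ethylene peak overlapped by at least 50% of both, as at 91.4% of all protein-coding genes in both lists. Their closest summits lay 7 to 116 bp apart, with a median of 18 bp. The fold values of the 2 lists rest on different control libraries, so they are given side by side and not compared.

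The genes found in a single treatment had low peaks. XTH18, a gene of elongating roots, had a 2.36-fold peak in air (4:14825061-14825301; pileup 23.9) whose summit lay 607 bp outside it. XTH26, a root hair gene, had an ethylene peak of 2.54-fold (4:14246147-14246368; pileup 29.5) with its summit inside the casein kinase gene ckl4. A further ethylene peak of 2.37-fold lay inside XTH26. XTH27, which acts in the veins of leaves, had an ethylene peak of 2.60-fold (2:387788-388037; pileup 17.5) whose summit lay 436 bp outside it and nearest to EMB975. All of these lay below the median fold of their lists, and none overlapped an ENAP1 ChIP peak of the other treatment.

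The ENAP1 ChIP peaks of the wall-growth genes were of middling height. The 16 distinct peaks in air ran from 1.76- to 3.63-fold with a median of 2.57, where the whole list had a median of 2.69 and a highest fold of 16.5. The 16 in ethylene ran from 1.56- to 4.69-fold with a median of 2.74, where the list had a median of 2.86 and a highest fold of 17.4. All 16 air peaks and 15 of the ethylene peaks had a q of 0.05 or lower. With such peaks alone, 12 of the 58 genes were targets in each treatment, against 37.5% of all protein-coding genes in air and 34.4% in ethylene. With a −log10 q of at least 5 the counts were 6 in air and 7 in ethylene, against 26.9% and 22.4% of all protein-coding genes.

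The air reChIP list had peaks at EXPA2, EXPA12, EXPA13, EXPA14, EXPA24, EXPA25, XTH2, XTH14, XTH19, XTH20, XTH23, XTH28 and XTH29. None of these peaks had a q of 0.05 or lower, so that with such peaks alone 0 of 58 genes were targets (exact binomial 95% interval up to 6.16%), against 7.07% of all protein-coding genes. The 14 distinct peaks rested on pileups of 3 to 8 tags. The highest fold, 3.75, was shared by peaks in XTH2 (4:7632318-7632429), in XTH19 (4:14829687-14829808) and 195 bp outside EXPA2 (5:1568445-1568591), each with a pileup of 5 tags and a q of 0.0507. The count of 0 of 58 therefore depends on a cutoff that lies just below the q of these peaks. XTH19 is a gene of elongating roots and of tissue that rejoins after wounding.

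The next were peaks beside EXPA13 (3:744961-745072) and in XTH29 (4:10401988-10402374), both 3.49-fold with a q of 0.0633. A second peak at XTH19, 400 bp outside the gene (4:14830583-14830706), was 3.38-fold with a q of 0.0823, and one beside EXPA14 (5:22811519-22811630) was 3.16-fold with a q of 0.148. A 3.12-fold peak in XTH28 (1:5068322-5068433) had a pileup of 4 tags and a q of 0.163, as did a second peak in XTH2. A 3.12-fold peak 7 bp outside EXPA24 also counted for EXPA25. The peaks of XTH23 and XTH14 (2.77- and 2.79-fold), EXPA12 (2.79-fold) and XTH20 (2.50-fold) were the lowest.

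The ethylene reChIP list had peaks at EXPA3, EXPA4, EXPA16, XTH3, XTH8, XTH11, XTH16, XTH26, XTH27 and XTH32. Those with a q of 0.05 or lower were at 5 genes, 8.62% of the 58 (2.86 to 19.0), against 22.5% of all protein-coding genes. The highest lay in XTH8, a 4.95-fold peak (1:3879084-3879425) with a pileup of 6 tags and a q of 0.000808, higher than 93.4% of the peaks of its list. The next lay 725 bp outside XTH32 (2:15475434-15475689), a member whose enzyme mainly cuts xyloglucan, with 3.65-fold, 4 tags and a q of 0.0248. One with 3.59-fold, 4 tags and a q of 0.0248 lay 539 bp outside EXPA16 (3:20574159-20574323) and nearest to AT3G55490.

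Peaks in EXPA4 (2:16544832-16544977) and in XTH3 (3:9127972-9128127), the latter encoding an enzyme that can join xyloglucan to cellulose, were both 3.39-fold with 4 tags and a q of 0.0384. All other ethylene reChIP peaks at these genes had q between 0.0806 and 0.0946 and pileups of 3 to 5 tags. Among them were a 3.08-fold peak inside XTH26 (4:14245618-14245941; 5 tags), 2.92-fold peaks in XTH11, in XTH16 and 777 bp outside EXPA3 (2:15786636-15786781; 3 tags), and a 2.84-fold peak beside XTH27. No reChIP peak at these genes reached a −log10 q of 5, and with such peaks 0.222% (air) and 0.707% (ethylene) of all protein-coding genes were targets, so that a count of 0 of 58 is near the background.

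At 4 of the 5 cases in which a gene had an ENAP1 ChIP and a reChIP peak in the same treatment, the peaks did not overlap. In air the lists shared EXPA2 and XTH28, which is 3.45% of the 58 genes, where 14.3% of all protein-coding genes were in both lists. The shared genes were 16.7% of the 12 ENAP1 ChIP targets and 15.4% of the 13 reChIP targets, against 36.9% and 46.8% of all protein-coding targets. The reChIP summit was 1671 bp from the ENAP1 ChIP summit at EXPA2, where the peaks lay on opposite sides of the gene, and 1157 bp from it at XTH28. Peaks overlapped at 35.9% of all protein-coding genes in both air lists.

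In ethylene the lists shared EXPA3, XTH26 and XTH27, which is 5.17% of the 58 genes, where 16.3% of all protein-coding genes were in both. The shared genes were 23.1% of the 13 ENAP1 ChIP targets and 3 of the 10 reChIP targets, against 44.9% and 48.0% of all protein-coding targets. The closest summits were 1459 bp apart at EXPA3, 450 bp at XTH26 and 114 bp at XTH27, and XTH27 was the only one with overlapping peaks, by 82 bp. Peaks overlapped at 52.1% of all protein-coding genes in both ethylene lists, and 5 cases are too few to set against these shares. Both air lists share their control library, and the ethylene reChIP has the air reChIP as its control, so these counts are given as values alone.

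No wall-growth gene was a target in both reChIP lists, where 9.97% of all protein-coding genes were. Since the air reChIP library is the control of the ethylene list, this count is not read as a change. ENAP1 ChIP targets without a reChIP peak in either treatment were EXPA1, EXPA6, EXPA9, XTH5, XTH18, XTH22, XTH24, XTH25 and XTH30, which include the gene with the highest ENAP1 ChIP fold, XTH5.

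**Figure D3:**
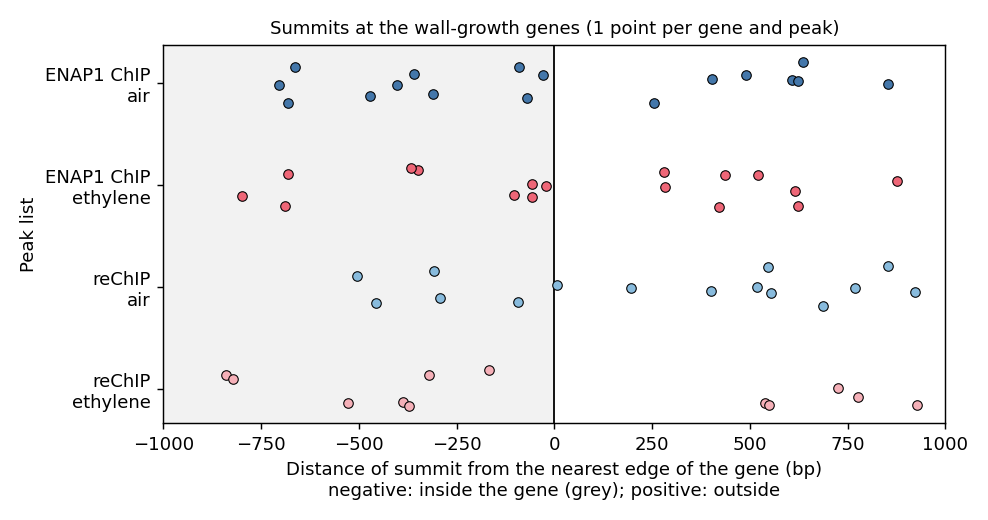
Distance of each summit from the nearest edge of its wall-growth gene, in bp, for the 4 peak lists; negative values lie inside the gene, and a peak that counts for several members is drawn for each. Air reChIP summits lie inside the gene in 5 of 15 cases, and those of the other lists in 9 of 17 (ethylene ENAP1 ChIP), 7 of 12 (ethylene reChIP) and 10 of 17 (air ENAP1 ChIP).

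Summits lay inside and outside these genes in about the proportions of the whole lists, apart from the air reChIP. Inside the gene were 58.8% of the 17 gene and peak pairs in the air ENAP1 ChIP list, against 53.4% of the pairs of all protein-coding genes, and 52.9% of the 17 pairs in ethylene, against 51.7%. In the ethylene reChIP list it was 58.3% of 12, against 61.3%. In the air reChIP list it was 33.3% of 15, against 57.8%. Many peaks also counted for a gene outside the families: of the distinct peaks, 5 of 16 in the air ENAP1 ChIP, 6 of 16 in ethylene, 7 of 14 in the air reChIP and 7 of 12 in the ethylene reChIP did so. A like share over the whole lists was not calculated, so these counts are not read as a trait of the families. A wall-growth gene was the nearest gene for 10 of the 12 air and 9 of the 13 ethylene ENAP1 ChIP targets, for 7 of the 13 air reChIP targets and for 8 of the 10 ethylene reChIP targets. Among all protein-coding genes the counts were 7825 of 10605 and 7322 of 9993 ENAP1 ChIP targets in air and ethylene. For the reChIP they were 6441 of 8360 in air and 7106 of 9328 in ethylene.

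The ENAP1 ChIP targets among the members were mostly the longer genes. Their median length was 1983 bp in air, against 1585.5 bp for the other members, and 2153 bp in ethylene, against 1570 bp. The same direction held among all protein-coding genes (2372 against 1881 bp in air, 2399 against 1882 bp in ethylene). For the air reChIP the median was 1574 bp for targets and 1684 bp for the other members, whereas among all protein-coding genes it was 2469.5 against 1927 bp. For the ethylene reChIP it was 1822.5 against 1637.5 bp among the members and 2398 against 1921 bp among all protein-coding genes.

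A total of 17 members lie in 5 tandem clusters, taken as runs of members at most 10000 bp apart. The largest, EXPA21, EXPA22, EXPA23, EXPA26, EXPA25 and EXPA24 on chromosome 5, had no ENAP1 ChIP summit in range in either treatment, and its only peak was the air reChIP peak between EXPA25 and EXPA24. In the row XTH12, XTH13, XTH25 and XTH22, the ENAP1 ChIP peak at XTH22 was the only one in range of a member in any list. In the row XTH24, XTH18 and XTH19, ENAP1 ChIP peaks lay at XTH24 and XTH18 and the air reChIP peaks at XTH19. XTH23 and XTH14 had air reChIP peaks on their outer sides, and XTH2 but not XTH1 had an air reChIP peak. Of the 17 clustered genes 23.5% were air ENAP1 ChIP targets, against 19.5% of the 41 other members, and 17.6% against 24.4% were ethylene ENAP1 ChIP targets. In the air reChIP the shares were 35.3% and 17.1%, beside 30.5% of all protein-coding genes. In the ethylene reChIP they were 0 of 17 and 10 of 41 (24.4%), beside 34.0% of all protein-coding genes. Clustered genes share peaks, and the differences between clustered and other members were not tested.

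**Figure D4:**
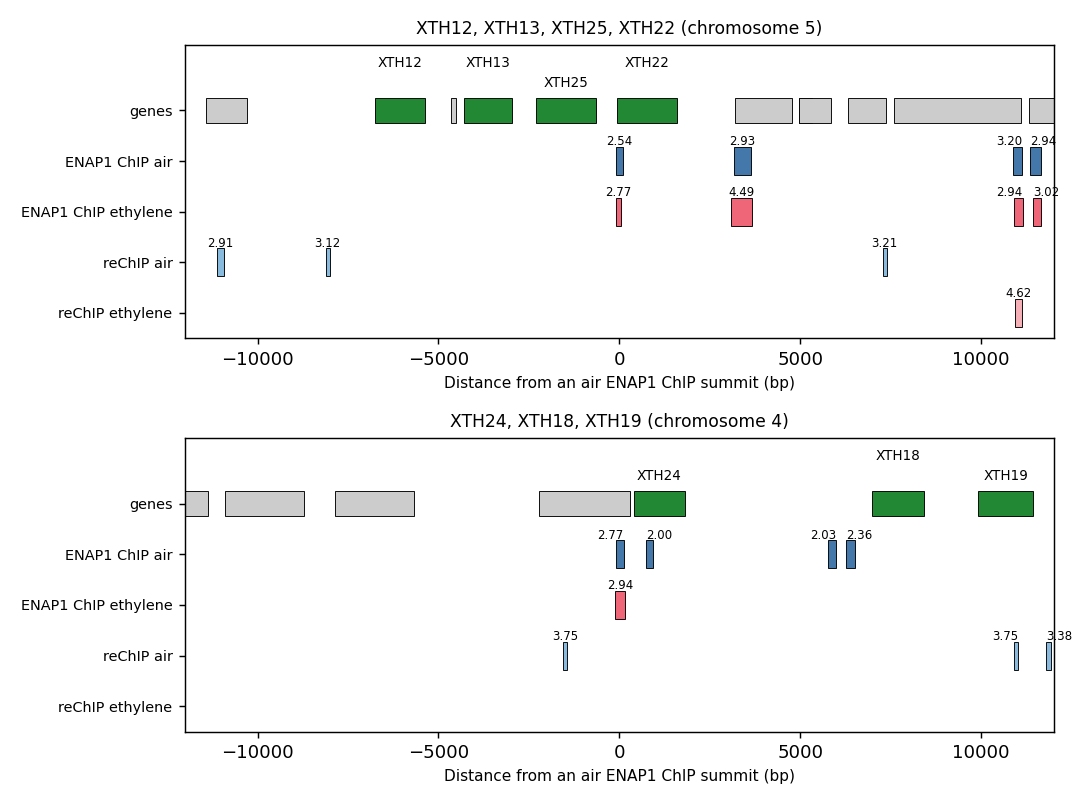
Gene rows (members in green, other protein-coding genes in grey) and peaks of the 4 lists around an air ENAP1 ChIP summit at XTH22 (top) and at XTH24 (bottom), in bp from that summit, with the fold beside each peak. The ENAP1 ChIP peak at XTH22 (2.54-fold in air, 2.77-fold in ethylene) is the only one in the 4-gene row, and the peaks before XTH18 are listed in air only.

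No peak of any list came within range of 26 genes. Among the alpha-expansins these were EXPA5, EXPA7, EXPA8, EXPA10, EXPA11, EXPA15, EXPA17, EXPA18, EXPA20, EXPA21, EXPA22, EXPA23 and EXPA26. They include the root hair expansins EXPA7 and EXPA18, EXPA10 of leaves and EXPA17 of emerging lateral roots. Among the XTH genes they were XTH1, XTH4, XTH6, XTH7, XTH9, XTH10, XTH12, XTH13, XTH15, XTH17, XTH21, XTH31 and XTH33. XTH4 and XTH9 act in stems and wood, XTH15 responds to shade, and XTH33 is held at the plasma membrane. For 12 of the 26 the nearest summit of any list lay 1015 to 1980 bp away, so the limit of 1000 bp bears on these calls. The closest summit to a gene without a target call lay 1015 bp from EXPA8 (ethylene reChIP), 1103 bp from XTH4 (ethylene ENAP1 ChIP) and 1139 bp from XTH6 (air reChIP), while the farthest summits counted lay 921 bp from EXPA12 (air reChIP) and 928 bp from XTH3 (ethylene reChIP). EXPA15 was the most distant, with its nearest summit of any list 12171 bp away.

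Genes of other steps of wall growth were looked at by 4 fixed lists. Beside their counts stand the shares of all protein-coding genes, 38.6% (air) and 36.4% (ethylene) in ENAP1 ChIP. In the reChIP these shares were 30.5% (air) and 34.0% (ethylene). Beta-expansin and expansin-like genes, relatives of the alpha-expansins, gave 3 of 12 ENAP1 ChIP targets in air and 2 in ethylene, with 1 in the air reChIP and 3 in the ethylene reChIP. The highest ENAP1 ChIP peak lay 759 bp outside EXLB2 in air (5.34-fold) and 755 bp outside it in ethylene (5.28-fold), and the highest ethylene reChIP peak lay in EXPB6 (5.43-fold). Of 12 genes of xyloglucan synthesis, which make the substrate of the XTH enzymes, 6 were ENAP1 ChIP targets in air and 5 in ethylene, 3 in the air reChIP and 7 in the ethylene reChIP. Their highest peaks lay beside the xylosyltransferase genes XXT5 in air (4.94-fold) and XXT4 in ethylene (4.81-fold), beside CSLC8 in the air reChIP (4.07-fold) and in XXT3 in the ethylene reChIP (6.01-fold).

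Of 10 cellulose synthase genes, 6 and 4 were ENAP1 ChIP targets in air and ethylene, and 4 and 8 were targets in the air and ethylene reChIP. With peaks of q 0.05 or lower alone, the reChIP counts were 1 in air and 2 in ethylene. The highest ethylene reChIP peak of each of the 8 genes had a pileup of 2 to 4 tags. The highest ENAP1 ChIP peaks lay in CESA6 (3.30-fold in air, 4.37-fold in ethylene), a subunit of primary wall cellulose synthesis, and the highest reChIP peaks beside CESA9 in air (5.03-fold) and CESA8 in ethylene (3.65-fold). Of 11 proton pump genes, whose pumps acidify the wall, 4 and 3 were ENAP1 ChIP targets and 4 were targets in each reChIP list. The highest ENAP1 ChIP peak lay beside AHA7 (6.11-fold in air, 9.34-fold in ethylene), above every peak of the 58 members, and the highest reChIP peaks lay in AHA2 (3.73-fold in air, 5.02-fold in ethylene). The cellulose synthase and proton pump genes have median lengths of 5424.5 and 5334 bp and the xyloglucan synthesis genes one of 2929 bp, so their counts are not set against those of the shorter wall-growth genes. The beta-expansin and expansin-like genes have a median of 1642.5 bp. With peaks of q 0.05 or lower alone, their reChIP counts were 0 in air and 3 in ethylene. By the same rule the counts were 2 and 6 for xyloglucan synthesis and 1 and 4 for the proton pumps. The shares of all protein-coding genes by this q rule were 7.07% in the air reChIP and 22.5% in the ethylene reChIP.

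**Figure D5:**
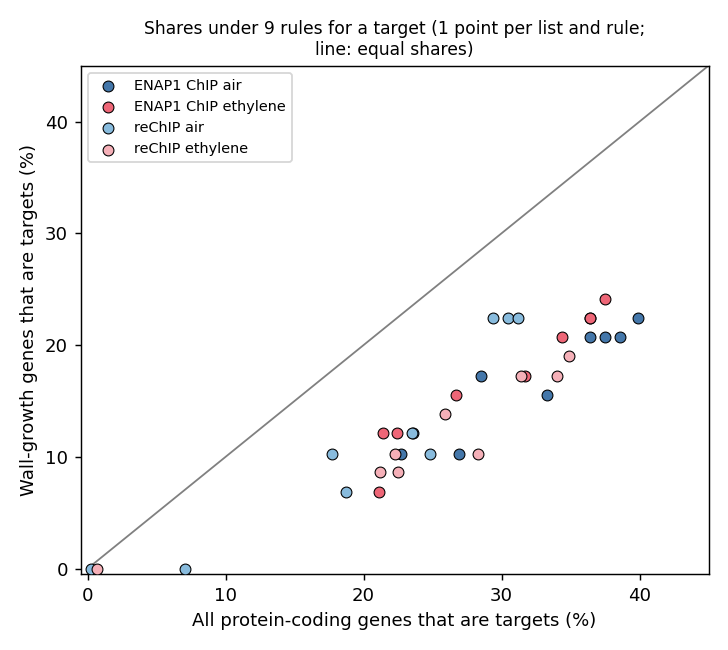
Share of the 58 wall-growth genes that were targets (vertical axis, percent) against the share of all protein-coding genes (horizontal axis, percent), with 1 point for each of the 4 lists under each of 9 rules for a target; the line marks equal shares. All points lie below the line, and 3 of them are at 0% of the wall-growth genes, of which 2 stand at 0.222 and 0.707% of all genes, where a lower share could not show.

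The lower share of targets among the wall-growth genes was found under 9 rules for a target, which differed in the q or fold of the peaks, in the number of peaks, in the window and in the way of assigning peaks. In 34 combinations of rule and list the share among all protein-coding genes amounts to at least 1 gene in 58. In each of these 34 the share among the 58 genes was below that among all protein-coding genes, and below that among genes of similar length. In the other 2, the reChIP lists with a −log10 q of at least 5, the 0 of 58 genes called cannot be told from the background. The combinations share peaks and are not independent of each other.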

How the data were processed

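ENAP1 ChIP and ENAP1-EIN2 reChIP were deposited as 1 peak list per library. The submitters' processing notes name BWA and the build TAIR10. Per the file headers, peaks were called with MACS2 2.1.0.20150603 at a p cutoff of 0.01 with at most 1 tag kept per position, each library against 1 control library and none pooled. For each peak the authors deposited the pileup, a signal in tags, the −log10 of its p-value and q-value, and its fold, a ratio to the local control. The q column was used although the headers announce none. Groups follow the sample titles; in the ethylene samples another label still says air.

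Gene positions were those of RefSeq's TAIR10.1 table, used without strand, exons or sequence and not printed. Its fit to the peaks was checked: 40.5% of air ENAP1 ChIP summits lay inside a gene within 200 bp of an edge, and at most 10.6% after shifts of 1000 to 5000 bp. The planned promoter motif search was not made. Summits were assigned with Python 3.11.15, pandas 2.3.3 and SciPy 1.17.1, checked on simulated summits. Duplicates made up 37% (air) and 34% (ethylene) of ENAP1 ChIP tags and 84% and 83% of reChIP tags. The members and lists were chosen with earlier results of these data known. The naming rule gave peak values for the 6 highest members per list, members in at least 3 lists and reChIP peaks with q of 0.05 or lower; values of other members were added after they were seen. Alternatives changed peak threshold, peak number, window, assignment and overlap.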

Additional observations from a re-analysis of the deposited data

How the results depend on the processing

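Of 62 recomputed counts, 28 stayed within 1.5 times the reported one and 34 did not. The reported counts of targets were 12 (air ENAP1 ChIP), 13 (ethylene ENAP1 ChIP), 13 (air reChIP) and 10 (ethylene reChIP). In that order they were 6, 7, 0 and 0 with a −log10 q of at least 5, 6, 4, 6 and 5 with fold at or above the list median, and 7, 7, 4 and 6 with summits inside the gene. The shares of all protein-coding genes were 38.6, 36.4, 30.5 and 34.0% by the main rule. With a −log10 q of at least 5 they were 26.9, 22.4, 0.222 and 0.707%. With fold at or above the median they were 22.7, 21.1, 17.7 and 21.2%, and with summits inside the gene 23.6, 21.4, 18.7 and 22.3%. With q of 0.05 or lower the air reChIP count was 0 and the ethylene reChIP count 5, against 7.07% and 22.5% of all protein-coding genes. With a window of 500 bp both reChIP counts were 6, against 24.8% (air) and 28.3% (ethylene) of all protein-coding genes. With the nearest gene only the air reChIP count was 7, against 23.5%. The shared counts that follow are given without such shares, so their falls are not read as a trait of the families. The 11 genes shared by the ENAP1 ChIP lists became 6 with a −log10 q of at least 5, 4 with fold at or above the median and 6 with summits inside the gene. The 2 genes shared in air by ENAP1 ChIP and reChIP became 0 with q of 0.05 or lower, with a −log10 q of at least 5 and when peaks had to overlap by 1 bp or by 50%, and 1 with fold at or above the median, summits inside the gene or the nearest gene only. The 3 shared in ethylene became 0 with q of 0.05 or lower, with a −log10 q of at least 5, with fold at or above the median and with an overlap of 50%, and 1 with a window of 500 bp, with summits inside the gene or with an overlap of 1 bp. Stricter rules keep fewer peaks by construction. Taking the same number of peaks per list (8858) left all 7 counts as reported. No paired analysis was possible because each group held 1 library. The reChIP libraries kept 644263 and 304818 tags, and a target there rested on 3 to 8 tags, so a gene without a reChIP peak may lie under what that depth could show.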
